A study of Mus musculus with 1989 samples.

Results

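Rag1, Rag2 and Dntt are the 3 genes described here, out of 8846 genes in the single-cell RNA sequencing (scRNA-seq) table, together with the 120 of 138317 single-cell ATAC-seq (scATAC-seq) peaks that lie at their loci. They were chosen by name, and their rows were followed across all 1993 cells of the scRNA-seq library. A peak was placed at a locus when it overlapped the gene or when the nearest protein-coding start site to its center was that of the gene, which gave 11 peaks at Rag1, 62 at Rag2 and 47 at Dntt. The study set out to describe how thymocytes of C57BL/6 mice develop, above all at the CD4+CD8+ double-positive (DP) stage. The thymus tissue came from male mice labelled as 7 weeks old, with no transgene, deletion or treatment named. The scATAC-seq cells were sorted as double-negative (DN, 182 cells), DP (125 cells), CD4 (119 cells) or CD8 (116 cells), or were total thymocytes (1084 cells). No animal was named for any cell, so the scRNA-seq library and each sort counted as 1 sample, and no test between groups was possible. All 95% intervals given below cover counting error only. A further 362 scATAC-seq cells were not used here.

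Rag1 and Rag2 encode the subunits of the recombinase that cuts DNA at the signal sequences beside V, D and J gene segments. Rag1 holds the catalytic site, and Rag2 is its obligate partner. Dntt encodes terminal deoxynucleotidyl transferase, which adds bases without a template at the cut ends before they are joined, so that the same segments give many different receptors. In the thymus, the T cell receptor (TCR) beta locus is rearranged in DN cells, the cells then divide through the immature single-positive (ISP) and DP blast (DPbla) stages, and the TCR alpha locus is rearranged in DP cells that have stopped dividing (DPre). Positive selection (DPsel) follows, and leads to CD4 or CD8 single-positive (SP) cells.

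Rag1 and Rag2 are neighbors that face each other on chromosome 2. On mouse build GRCm38, Rag2 spans chr2:101624718-101632529 on the plus strand and Rag1 spans chr2:101638282-101649501 on the minus strand, with their start sites 24783 bp apart. Dntt spans chr19:41029275-41059525 on the plus strand. The 3 promoters are shown because each held an open-chromatin peak at the start site, and the fourth sequence because it is the center of the strongest peak near the Rag genes. All were read from RefSeq GRCm38.p6, from 250 bases before to 50 bases after the RefSeq start for the promoters, and 200 bases for the peak center. Capitals mark matches, on either strand, to 5 motifs. The letters searched for were GGAAG for Ets factors, TGGGAA for Ikaros, TGTGGT for Runx factors, GATAA for the factors of the GATA family, and CCAAT for the box of that name. The positions are chr2:101649483-101649782 (minus strand) for the Rag1 promoter, chr2:101624462-101624761 (plus) for the Rag2 promoter, chr19:41029025-41029324 (plus) for the Dntt promoter and chr2:101551517-101551716 (plus) for the peak center.
Rag1 promoter: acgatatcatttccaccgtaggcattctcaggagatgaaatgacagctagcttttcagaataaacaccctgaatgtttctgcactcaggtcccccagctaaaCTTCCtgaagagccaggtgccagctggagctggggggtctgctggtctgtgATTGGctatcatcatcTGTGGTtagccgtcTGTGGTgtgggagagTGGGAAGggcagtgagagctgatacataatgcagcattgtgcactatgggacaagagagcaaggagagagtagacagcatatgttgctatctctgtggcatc
Rag2 promoter: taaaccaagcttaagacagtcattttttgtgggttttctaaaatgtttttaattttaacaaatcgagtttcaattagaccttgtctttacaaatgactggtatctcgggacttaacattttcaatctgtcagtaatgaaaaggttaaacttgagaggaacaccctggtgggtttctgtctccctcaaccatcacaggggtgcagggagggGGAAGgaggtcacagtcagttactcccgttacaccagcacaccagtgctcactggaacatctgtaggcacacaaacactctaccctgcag
Dntt promoter: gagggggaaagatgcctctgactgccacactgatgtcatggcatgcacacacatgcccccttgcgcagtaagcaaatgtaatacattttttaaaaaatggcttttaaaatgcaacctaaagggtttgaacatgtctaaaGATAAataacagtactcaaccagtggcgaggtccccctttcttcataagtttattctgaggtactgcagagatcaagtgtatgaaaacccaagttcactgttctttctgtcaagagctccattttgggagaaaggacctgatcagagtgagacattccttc
Distal peak center: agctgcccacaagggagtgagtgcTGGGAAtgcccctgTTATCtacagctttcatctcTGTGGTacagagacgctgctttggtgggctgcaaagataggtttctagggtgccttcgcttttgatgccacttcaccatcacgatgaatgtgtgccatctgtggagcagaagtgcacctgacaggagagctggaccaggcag

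The 3 promoters had different letters. The Rag1 promoter held 2 Runx matches, 2 Ets matches, 1 CCAAT match and 1 Ikaros match, and the Ikaros match overlapped 1 of the Ets matches. The Rag2 promoter held 1 Ets match, and the Dntt promoter held 1 GATA match. The distal peak center held 1 match each for Ikaros, GATA and Runx. Most of these letters are common. Among 32851 promoters of the same length, 71.4% held the Ets letters, 37.4% the CCAAT letters, 25.6% the Ikaros letters, 25.4% the GATA letters and 16.8% the Runx letters. Among the centers of all peaks, 20.6% held the Runx letters, 18.1% the GATA letters and 15.8% the Ikaros letters. A match is a description of the sequence and not a bound site. The TATA letters (TATAAA), present in 13.6% of promoters, were in none of these 3 windows. No match was found in the 4 sequences for Tcf/Lef (CTTTGAA), Foxo (GTAAACA) or the octamer (ATGCAAAT). The short E-box (CANNTG) and Myb (AACNG) letters, found in 72.3% and 80.3% of promoters, were not marked. The GC content was 50% in the Rag1 promoter, 43% in the Rag2 promoter and 42.3% in the Dntt promoter, against a median of 52.7% over all promoters.

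The cells of the scRNA-seq library were grouped into 17 clusters without using the 3 genes, since the study itself named the DPre stage by high Rag1. Clusters were then named from marker genes that do not include them: 78 DN-like, 161 ISP-like, 344 DPbla-like, 495 DPre-like, 328 DPsel-like and 372 SP-like cells, 31 nonconventional lymphocyte (NCL)-like cells, 36 antigen-presenting (APC)-like cells, and 148 cells of a cycling cluster that stayed unnamed and was led by Ccne2. The names are rebuilt and can differ from those of the study. Within the DPsel-like class, the cluster led by Itm2a also had Cd40lg, Il7r and Bcl2 among its leading genes, which are genes of more mature cells. Levels are given on 3 scales. The deposited values are log2 values. A step counts how many different nonzero values its cell holds up to and including that one, which is the least number of molecules the value can stand for, and sums of steps are given per 10000 steps of the class. Shares of cells were computed after every cell had been thinned to 1300 steps, because the median depth ran from 1938 steps in NCL-like to 10070 in ISP-like cells.

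In DN-like cells Dntt and Rag1 were both well detected, and Rag2 was low. The log2 level of Rag1 was 1.07 ± 1.04 (SD over 78 cells), that of Rag2 was 0.20 ± 0.40 and that of Dntt was 2.97 ± 0.93. After thinning, Rag1 was detected in 46.2% of DN-like cells (34.8 to 57.8%), Rag2 in 12.8% (6.32 to 22.3%) and Dntt in 89.7% (80.8 to 95.5%). Without thinning these shares were 80.8%, 29.5% and 97.4% at a median depth of 3633 steps. The cluster was named from its average score over 6 DN markers, 1 of which, Il2ra, encodes the CD25 surface marker and was at 6.90 steps per 10000.

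As a share of all steps, Rag1 and Dntt were lower in the ISP-like cells, where the cells divide, and for Rag2 the difference was within counting error. Unscaled, the median cell had 10 steps of Dntt in the ISP-like and 7 in the DN-like class. For Rag1 it had 2 and 1.5. Rag1 was at 2.10 steps per 10000 against 5.14 in DN-like cells, a fold of 2.45 (2.02 to 2.96). Dntt was at 10.0 against 19.7, a fold of 1.96 (1.78 to 2.15). For Rag2, at 0.60 against 0.88, the interval of the fold included 1 (0.93 to 2.24). The thinned share of Rag1 cells was 19.9% in ISP-like cells (14.01 to 26.9%), or 26.3 percentage points below DN-like cells (13.6 to 38.5). Without thinning the Rag1 share was 79.5% in ISP-like cells, at a median of 10070 steps, so the DN to ISP difference shrank to 1.27 points, and those of Rag2 and Dntt turned to -7.16 and -0.701 points, each with an interval that included 0. On the log2 scale, Dntt was 0.82 higher in DN-like than in ISP-like cells, rank 23 of 7811 genes above 0 in at least 10% of either class, and Rag1 was 0.46 higher, rank 82. A log2 difference of 0.5 or more was reached by 0.96% of those genes, and among the 3 genes by Dntt alone. The 2 ISP-like clusters, led by Mif and by Gzma, had near values: Rag1 was at 2.13 and 2.06 steps per 10000 and Dntt at 9.98 and 10.1.

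Within the blast stage all 3 genes had their highest level in the same cluster. In DPbla-like cells Rag1 was at 3.97 steps per 10000, Rag2 at 1.53 and Dntt at 12.6, with thinned shares of 40.4%, 18.6% and 73.5%. The cluster led by Cdc20, a gene of late mitosis, stood apart from the other DPbla-like clusters. There Rag2 was at 3.09 (2.56 to 3.70), the highest value of all 17 clusters, and Dntt was at 20.0, while Rag1 was at 5.68. The DPre-like cluster led by Hist1h2bc was not told apart from it in Rag2, at a fold of 0.84 (0.63 to 1.12). In the blast cluster led by Rrm2, a gene of DNA synthesis, the levels were 3.35 for Rag1, 1.05 for Rag2 and 10.7 for Dntt. In the blast cluster led by Ube2c they were 3.94, 1.36 and 11.2. The unnamed cluster led by Ccne2 had Rag2 at 1.10, so that the Cdc20 cluster was 2.81-fold higher (2.10 to 3.79). Genes of mitosis (10 listed) summed to 115.05 steps per 10000 in the Cdc20 cluster, 116.97 in the Ube2c cluster and 69.2 in the Rrm2 cluster, and genes of DNA synthesis to 6.05, 20.4 and 43.0. The mitosis sum was thus as high in the Ube2c cluster, in which Rag2 and Dntt were lower.

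**Figure D1:**
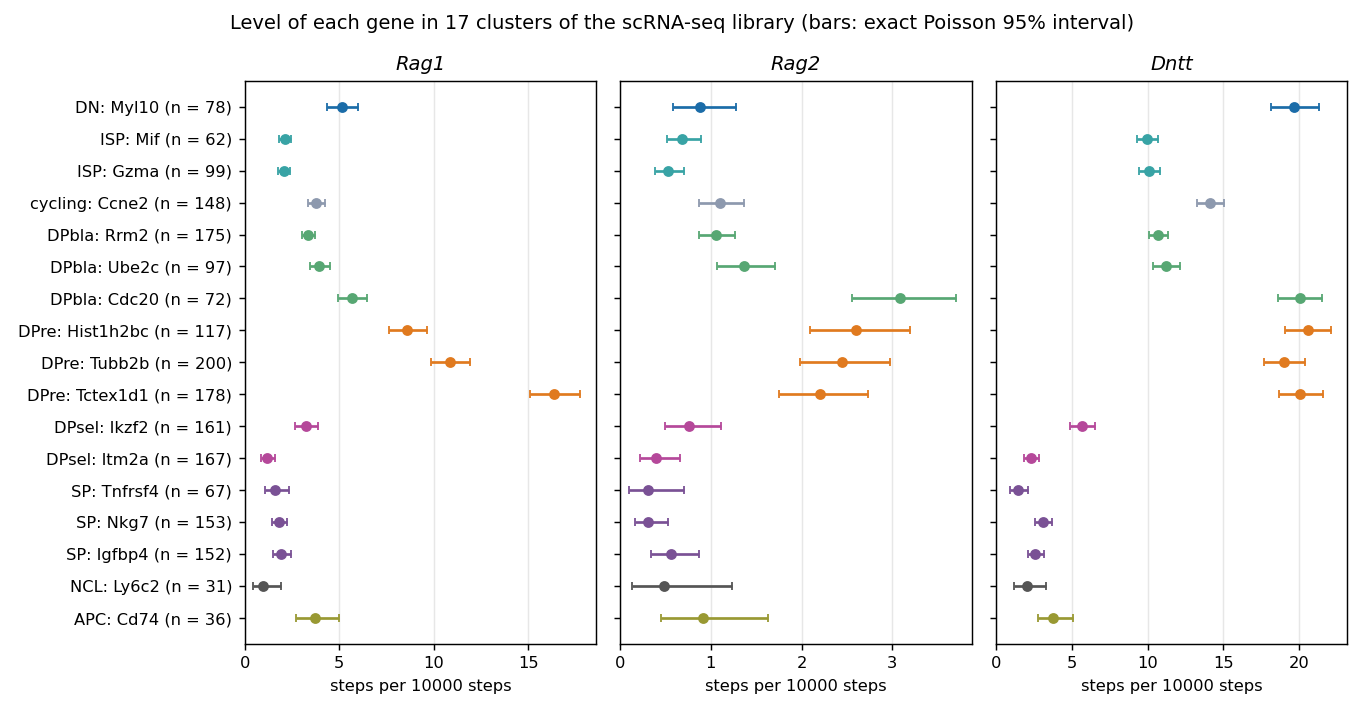
Levels of Rag1, Rag2 and Dntt in 17 clusters of the scRNA-seq library, in steps per 10000 steps (x axes differ between panels). Points are sums over the cells of a cluster and bars are exact Poisson 95% intervals. Rag1 was highest in the DPre-like cluster led by Tctex1d1, and Dntt was near 20 in the DN-like, Cdc20 and all DPre-like clusters. Rag2 was highest in the DPbla-like cluster led by Cdc20, with an interval that overlapped those of the DPre-like clusters.

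DPre-like cells had the highest class level of Rag1 and Rag2 per 10000 steps. The log2 level of Rag1 was 1.89 ± 1.14 (SD over 495 cells), against 1.01 ± 0.80 in the 344 DPbla-like cells. In steps, Rag1 was 3.02-fold higher than in DPbla-like cells (2.76 to 3.30; 11.98 against 3.97 per 10000), Rag2 1.57-fold (1.33 to 1.86; 2.41 against 1.53 per 10000) and Dntt 1.57-fold (1.48 to 1.66). The thinned share of Rag1 cells was 74.5% (70.5 to 78.3%), 34.1 points above DPbla-like cells (27.5 to 40.4). The corresponding differences were 9.07 points for Rag2 (3.25 to 14.6), which was 3.8 points, with an interval that included 0, with 30 principal components in the clustering, and 14.9 points for Dntt (9.56 to 20.5). These differences depend on the equal depth, and the folds on the scaling. Unscaled, the median DPre-like and DPbla-like cell had 4 and 6 steps of Dntt and 0 and 1 of Rag2. For Rag1 the median was 2 in both classes. Without thinning, the Rag1 difference was 4.56 points (-0.154 to 9.53). Also without thinning, Rag2 was above 0 in 38.6% of DPre-like cells at a median of 1999 steps and in 52.6% of DPbla-like cells at 5261 steps, and Dntt in 95.4% and 98.5%. Among 6228 genes compared between the classes on the log2 scale, the difference of 0.88 put Rag1 at rank 6 and 0.36 put Dntt at rank 58, and Rag2 differed by 0.06. Only 0.546% of these genes were higher by 0.5 or more in DPre-like cells, Rag1 among them.

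Against DN-like cells, which use the same enzymes on another locus, DPre-like cells had 2.33-fold more Rag1 (1.98 to 2.76) and 2.74-fold more Rag2 (1.85 to 4.19) per 10000 steps. On this scale Dntt did not differ beyond counting error: it was at 19.8 in DPre-like and 19.7 in DN-like cells, a fold of 1.01 (0.92 to 1.10). Unscaled, the median DPre-like cell had 4 steps of Dntt and the median DN-like cell 7.

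The DPre-like clusters differed in Rag1 but hardly in the other genes. From the cluster led by Hist1h2bc, where 44.4% of cells still had Mki67 above 0, to those led by Tubb2b and Tctex1d1, Rag1 went from 8.59 to 10.8 and 16.4 steps per 10000. Rag2 was at 2.60, 2.44 and 2.21, and Dntt at 20.6, 19.0 and 20.1. Between the Tctex1d1 and Tubb2b clusters the fold was 1.51 for Rag1 (1.33 to 1.71), and for Rag2 and Dntt it was 0.90 and 1.06.

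The proportion of Rag1 to Rag2 therefore changed from cluster to cluster. Such ratios are compared between clusters only, since the capture of each 3′ end is not known and a ratio within a cluster is not a ratio of transcripts. There were 1.84 Rag1 steps for each Rag2 step in the Cdc20 cluster (1.46 to 2.32), 3.30 in the Hist1h2bc cluster (2.60 to 4.22), 4.44 in the Tubb2b cluster (3.56 to 5.60) and 7.43 in the Tctex1d1 cluster (5.89 to 9.47). In DN-like cells the ratio was 5.82 (3.88 to 9.03). The ratio of Dntt to Rag1 went the other way over these clusters, from 3.53 in the Cdc20 cluster to 1.23 in the Tctex1d1 cluster (1.10 to 1.37). Rag1 is part of both ratios. Dntt over Rag1 was 4.79 in ISP-like cells (4.27 to 5.39) and 3.83 in DN-like cells (3.22 to 4.58). Both classes were above the Cdc20 cluster in both ratios, with Rag1 over Rag2 at 3.48 in ISP-like cells (2.79 to 4.38).

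**Figure D2:**
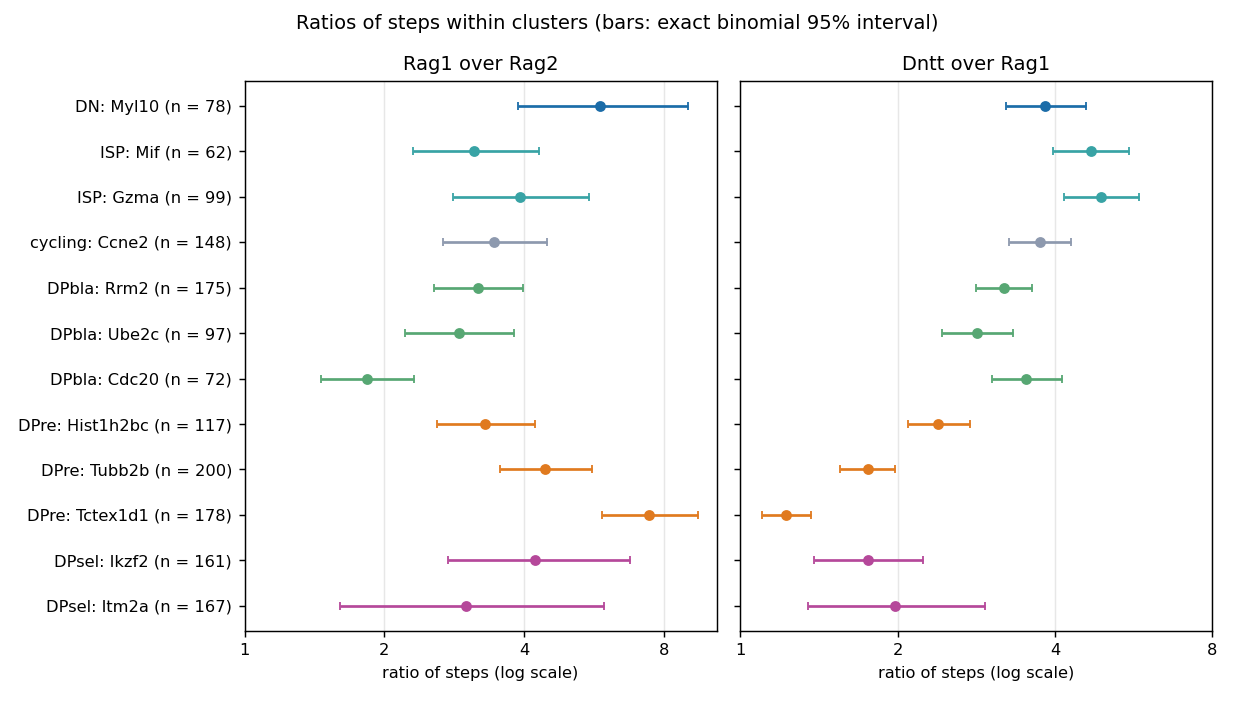
Ratio of Rag1 to Rag2 steps and of Dntt to Rag1 steps in the clusters from DN-like to DPsel-like, on log axes, with exact binomial 95% intervals as bars. Rag1 over Rag2 was lowest in the Cdc20 cluster (1.84) and highest in the Tctex1d1 cluster (7.43), and Dntt over Rag1 was lowest in the Tctex1d1 cluster (1.23).

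Levels dropped sharply between DPre-like and DPsel-like cells. Rag1 was 5.51-fold lower in DPsel-like cells (4.66 to 6.56), Rag2 4.22-fold lower (3.02 to 6.04) and Dntt 5.02-fold lower (4.43 to 5.71). The thinned share of Rag1 cells was 19.2% in DPsel-like cells (15.1 to 23.9%), 55.3 points lower than in DPre-like cells, and that of Dntt was 32.0%, 56.5 points lower. Of 4397 genes compared on the log2 scale, Dntt had the third largest drop (1.99) and Rag1 the eighth (1.54), and Rag2 (0.34) was at rank 116. A difference of 0.5 or more in this direction was found for 1.39% of the genes. The DPsel-like cluster led by Ikzf2 still had 3.22 steps of Rag1 and 5.65 of Dntt per 10000, and the cluster led by Itm2a had 1.17 and 2.32.

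DPsel-like and SP-like cells did not differ in Rag1 beyond counting error: the fold was 1.19 (0.95 to 1.49). For Rag2 it was 1.42 (0.89 to 2.28). Dntt was 1.5-fold higher in DPsel-like cells (1.26 to 1.79). The log2 differences were 0.02, 0.02 and 0.16, and 0.312% of 4494 genes were higher in DPsel-like cells by 0.5 or more. Free RNA in droplets can give counts to cells that do not express a gene, so these low levels are set beside those of the NCL-like cells as a class outside the stages in which the recombinase is used. The thinned share of Rag1 cells was 18.0% in SP-like cells and 16.1% in NCL-like cells (5 of 31, 5.45 to 33.7%), whose median depths were 2218.5 and 1938 steps. For Dntt the shares were 29.6% and 16.1% (5.45 to 33.7%), and for Rag2 5.91% and 9.68%. The shares in SP-like cells therefore lay within the NCL-like intervals, as did those in DPsel-like cells, and were not told apart from background in 31 cells. The sums of steps separated the classes further. Rag1 was at 2.17 per 10000 in DPsel-like cells (1.84 to 2.55), 1.82 in SP-like cells (1.56 to 2.12) and 0.96 in NCL-like cells (0.42 to 1.90). Dntt was at 3.95 (3.50 to 4.44), 2.63 (2.31 to 2.98) and 2.05 (1.19 to 3.28). The intervals of DPsel-like and NCL-like cells overlapped for Rag1 and did not for Dntt, and SP-like cells were within the NCL-like interval for both genes. In the Ikzf2 cluster the thinned share of Dntt cells was 42.9% (35.1 to 50.9%), also above the NCL-like interval. APC-like cells had shares of 30.6% for Rag1, 13.9% for Rag2 and 41.7% for Dntt at 2407.5 steps, with Rag1 at 3.71 steps per 10000. They do not serve as cells without the genes, since the 6 B lineage markers in the table summed to 29.96 steps per 10000 there, against 0.12 to 1.01 in the other classes, and 4 plasmacytoid dendritic cell markers to 35.8, against 2.65 to 16.6 in the other classes, with the highest of these in DPsel-like cells. The part of such cells, of free RNA and of thymocyte doublets in the APC-like level was not tested. Cd8b1, a coreceptor gene of T cells, was at 11.8 steps per 10000 in them.

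Along an order of the cells from DPbla to SP, rebuilt by population balance analysis, Dntt and Rag2 were high earlier than Rag1. In 10 bins of 168 or 169 cells, all 3 genes were highest in the fifth bin, in which 99.4% of cells were DPre-like, with 14 steps per 10000 of Rag1, 2.67 of Rag2 and 20.4 of Dntt. In the third bin, a mixture in which the unnamed cycling cells were the most frequent (41.4%), Rag2 was already at 2.32 (2.00 to 2.67) and Dntt at 18.3 (17.4 to 19.2). Their intervals overlapped those of the fifth bin. Rag1 was at 4.98 in the third bin (4.51 to 5.48) and at 10.7 in the fourth. The unnamed cycling cluster as a whole had Rag2 at 1.10 and Dntt at 14.1. The Cdc20 cluster, with a median position of 0.29, had 3.09 and 20.0. Which cells gave the level of the third bin was not tested. All 3 genes first dropped below 50% of their highest level in the seventh bin, in which 91.1% of cells were DPsel-like, at 2.71, 0.76 and 4.21. The order does not place the stages before DPbla: the DN-like cells had a median position of 0.36 on a scale from 0 to 1, after the DPbla-like cells at 0.09. The ISP-like cells at 0.21 and the Ccne2 cluster at 0.22 also came after the blast clusters led by Rrm2 (0.04) and Ube2c (0.13).

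**Figure D3:**
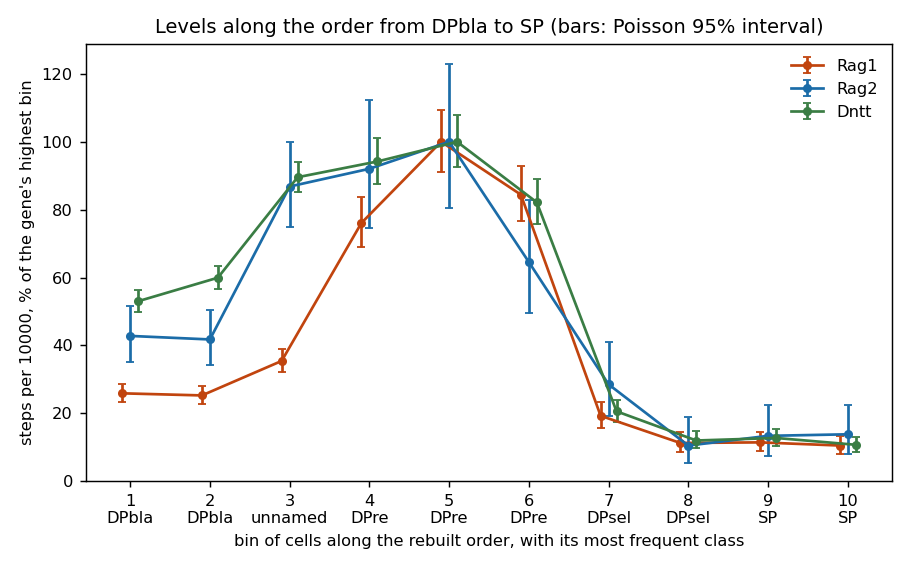
Level of each gene in 10 bins of cells along the rebuilt order from DPbla to SP, as a percentage of its highest bin, with exact Poisson 95% intervals as bars and the most frequent class of each bin under its number. Rag2 and Dntt were near their highest level in the third bin, where Rag1 was not, and all 3 were below 50% from the seventh bin on.

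Within DPre-like cells, Rag1 and Rag2 were detected together about as often as the product of their shares. In DPre-like cells thinned to 1300 steps, both were detected in 93 of 495 cells (18.8%, 15.4 to 22.5%), and the product of the single shares was 20.6%. Of the 369 cells with Rag1, 25.2% had Rag2, and of the 126 without Rag1, 34.9% had it. In DPbla-like cells both were detected in 8.14%, against a product of 7.52%. In DPsel-like cells the values were 2.13% and 1.35%, and in SP-like cells 1.88% and 1.07%, on 7 cells each. All 3 genes were detected together in 79 DPre-like cells (16.0%), and none of them in 7 (1.41%). In ISP-like cells all 3 were detected in 0 of 161 cells, so a share as high as 1.86% remains possible. None of the 3 was detected in 3.85% of DN-like, 24.2% of ISP-like, 13.7% of DPbla-like, 55.5% of DPsel-like and 56.7% of SP-like cells. With few steps per cell such shares describe detection and not presence.

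The genes whose levels over the 17 clusters were most like those of each gene were named by Pearson's r of log2 steps per 10000 among 7512 genes. The clusters come from 1 library and differ in depth, with medians from 1885 to 12861.5 steps per cell, so r is a description. For Dntt the nearest genes were Arpp21 (r = 0.963), a marker used to name DPre cells, Xrcc6 (0.961), Epg5 (0.960), Rnf157 (0.948) and Desi1 (0.947). Xrcc6 encodes the Ku70 protein, which binds broken DNA ends before they are joined. It was at 6.24 steps per 10000 in DPre-like, 3.94 in DN-like, 3.87 in DPbla-like, 2.95 in ISP-like and 1.32 in DPsel-like cells. For Rag2 the nearest were A930003A15Rik (0.981), Mpp1 (0.938), Agtrap (0.933), Wasf2 (0.927) and Tubb2b (0.912). For Rag1 they were 1810059H22Rik (0.950), Gm37065 (0.946), B230118H07Rik (0.943), Ccdc28b (0.936) and Uspl1 (0.934). B230118H07Rik overlaps Rag1 on the same strand, so reads of the 2 genes may not be told apart. It was at 1.20 steps per 10000 in DPre-like and 0.61 in DPbla-like cells. The members were less alike than these genes: r was 0.876 between Rag1 and Rag2, 0.815 between Rag2 and Dntt, and 0.814 between Rag1 and Dntt.

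Other genes of the reaction were counted by list, against 34 genes higher and 260 lower among the 6228 compared between DPre-like and DPbla-like cells. Of 18 genes of end joining and the break response, 16 were in the table, and 8 could be compared between DPre-like and DPbla-like cells. None was higher by 0.5 on the log2 scale in DPre-like cells, and H2afx, a histone gene that marks breaks and is also used in dividing cells, was 2.45 lower. Between DPre-like and DPsel-like cells 4 could be compared, and Xrcc6 was 0.88 higher. Over all 4397 genes of that comparison 61 were higher and 43 lower. In DN-like against ISP-like cells H2afx was the only 1 of 14 past 0.5, at 0.88 lower, and over all 7811 genes 75 were higher and 425 lower. Among 8 cofactors and partners, Hmgb1 and Hmgb2, DNA-bending proteins that help the recombinase bind, were 1.11 and 3.55 lower in DPre-like than in DPbla-like cells, and 1.35 and 0.65 higher than in DPsel-like cells. Kpna2, a nuclear import factor, was 0.93 lower than in DPbla-like cells. Of 6 genes for the cell-cycle turnover of Rag2 protein, Cks1b and Ccna2 were 1.5 and 1.65 lower in DPre-like than in DPbla-like cells, and no gene was higher. In DN-like against ISP-like cells Hmgb1, Hmgb2, Cks1b and Ccna2 differed by -1.48, -3.03, -1.36 and -0.75, and no gene of either list was higher.

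Of 24 listed regulators known at these genes 23 were in the table. None of them differed by 0.5 between DPre-like and DPbla-like cells, which is near the share over all genes. Of 21 compared between DPre-like and DPsel-like cells, 3 were higher in DPre-like cells, namely the E protein gene Tcf12 (0.54), Bcl11b (0.56) and Tcf7 (0.53), and 2 were lower, namely Id2 (-0.65), an inhibitor of E proteins, and Lef1 (-1.10). Between DN-like and ISP-like cells 3 were higher, namely Runx1 (0.53), Myb (0.53) and Bcl11b (0.83), and Id3 (-0.54), Satb1 (-0.55) and Tcf7 (-0.81) were lower, of 23 compared. Between DPsel-like and SP-like cells, Satb1 (1.29) and Tcf7 (0.68) were higher, of 19 compared, and over all 4494 genes 14 were higher and 39 lower. Of 10 genes of the substrate loci and their receptor partners, 9 could be compared between DPre-like and DPbla-like cells, and Trbc2, a constant region of TCR beta, was 0.55 higher. Of 9 compared between DPre-like and DPsel-like cells, Trac, the constant region of TCR alpha, was 1.14 lower in DPre-like cells, and Trbc1 and Trbc2 were 0.64 and 0.66 higher. In DN-like against ISP-like cells 4 of 10 were higher and none lower: Tcrg-C1, a constant region of TCR gamma, by 1.87, and the CD3 chain genes Cd3e, Cd3d and Cd3g by 0.57, 0.87 and 1.3. Of 8 compared between DPsel-like and SP-like cells, Trbc2 was 0.61 higher. Among 3 survival genes, Bcl2 was 1.13 lower in DPre-like than in DPsel-like cells and 0.80 higher in DN-like than in ISP-like cells, and Bcl2l1 and Mcl1 did not differ by 0.5 in these comparisons.

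In scATAC-seq, the DP sort had the highest signal at all 3 loci among the 4 sorts. Signal is given as counts in the peaks of a locus per 10000 counts in all peaks of the sort, and the median cell had from 2571 counts in the CD4 sort to 5792 in total thymocytes. At Rag1 the signal was 1.04 in the DN sort (115 counts), 3.51 in the DP sort (168 counts), 0.0358 in the CD4 sort (2 counts) and 1.27 in the CD8 sort (63 counts). At Rag2 it was 2.35 in DN, 8.18 in DP, 1.18 in CD4 and 3.64 in CD8. At Dntt it was 2.37 in DN, 5.16 in DP, 1.68 in CD4 and 2.97 in CD8. The sort labels stood against the signal within 5000 bp of marker genes as follows. Zbtb7b, a gene of the CD4 lineage, was at 1.20 in CD4 and 0.24 in CD8 cells, Runx3, of the CD8 lineage, at 0.39 and 0.79, and Cd8a was highest in DP (4.16). Il2ra was not higher in the DN sort (0.24) than in DP (0.25), CD4 (0.27) or CD8 (0.40). Kit was at 0.32 in DN, 0.42 in DP, 0.07 in CD4 and 0.10 in CD8 cells, and Ptcra at 0.26, 0.38, 0.16 and 0.20. These markers therefore did not set the DN sort apart from the DP sort, and Il2ra did not set it apart from any sort.

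The DP signal was 5.69-fold that of the CD4 and CD8 sorts together at Rag1 (4.25 to 7.70), 3.50-fold at Rag2 (2.98 to 4.12) and 2.26-fold at Dntt (1.88 to 2.71). Against the DN sort it was 3.39-fold (2.66 to 4.33), 3.49-fold (2.97 to 4.09) and 2.18-fold (1.82 to 2.60). As counts per cell, the ratios to the DN sort were lower, at 2.13 (1.67 to 2.72), 2.19 (1.87 to 2.57) and 1.37 (1.14 to 1.63). DN cells had 1.68-fold the signal of the CD4 and CD8 sorts together at Rag1 (1.23 to 2.31), but only the CD4 sort, with 2 counts, was below the DN sort (1.04), and the CD8 sort (1.27) was above it. The ratio was 1.00 at Rag2 (0.84 to 1.20) and 1.04 at Dntt (0.87 to 1.24). Within the label numbers from 4000, described next, it was 1.26 at Rag1 (0.71 to 2.12) and 1.5 at Rag2 (1.15 to 1.94). The first of these intervals included 1 and the second did not. All intervals at the loci treat each count as independent. A cell can hold several counts of a locus, and 61.6% of all peaks overlapped the next, so these intervals can be too narrow. After thinning to 1000 counts per cell, a count at Rag1 was found in 22.4% of DP cells, 7.43% of DN cells, 11.0% of CD8 cells and 0 of 96 CD4 cells. The shares without thinning were 44% of DP, 23.1% of DN, 21.6% of CD8 and 1.68% of CD4 cells. At Rag2 the thinned shares were 45.7%, 15.4%, 26.4% and 12.5%, and at Dntt 36.2%, 12.0%, 15.4% and 11.5%, in the same order of DP, DN, CD8 and CD4.

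Cells of a sort carry label numbers in separate blocks, whose meaning the labels do not give, and the blocks differed. Cells numbered from 31000 were shallow, with medians of 1261.5 counts in DN and 1262.5 in CD8 cells. Within the block from 4000, which all 4 sorts share, the DP to DN ratio was 3.87 at Rag1 (2.34 to 6.71), 2.06 at Rag2 (1.59 to 2.70) and 1.53 at Dntt (1.14 to 2.07), and the ratio of DP to CD4 and CD8 was 4.86, 3.09 and 1.99. Within the block from 31000 the intervals of both Dntt ratios included 1 (1.57, 0.56 to 4.09, and 1.37, 0.45 to 4.20), on 8 DP counts. Counted per cell and not per 10000 counts, DN exceeded CD4 and CD8 by 1.36-fold at Rag2 and 1.41-fold at Dntt.

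The peaks at both Rag start sites had their highest signal in the DP sort. The peak at the Rag1 start site, centered 101 bp upstream (chr2:101647603-101651602), had 22 counts in DN, 40 in DP, 0 in CD4 and 19 in CD8 cells, or 0.198, 0.836, 0 and 0.384 per 10000. A count of 0 in the CD4 sort allows up to 0.0538 per 10000. The peak at the Rag2 start site, centered 42 bp downstream (chr2:101622761-101626760), had 10, 27, 0 and 13 counts in the same order. Thus none of the 119 CD4 cells had a count at either start site, against 32 of 125 DP cells at Rag1 and 22 at Rag2. In the CD8 sort 12 of 116 cells had a count at Rag1 and 12 at Rag2, all of them in the block from 4000. Signal near Arpp21 was 0.79 in DP, 0.31 in DN, 0.28 in CD8 (14 counts) and 0.23 in CD4 cells (13 counts). This marker was used to name DPre cells, but its RNA was as high in DN-like cells (13.4 steps per 10000) as in DPre-like cells (12.6). The part that DP cells in the CD8 sort may have in its signal was not tested.

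**Figure D4:**
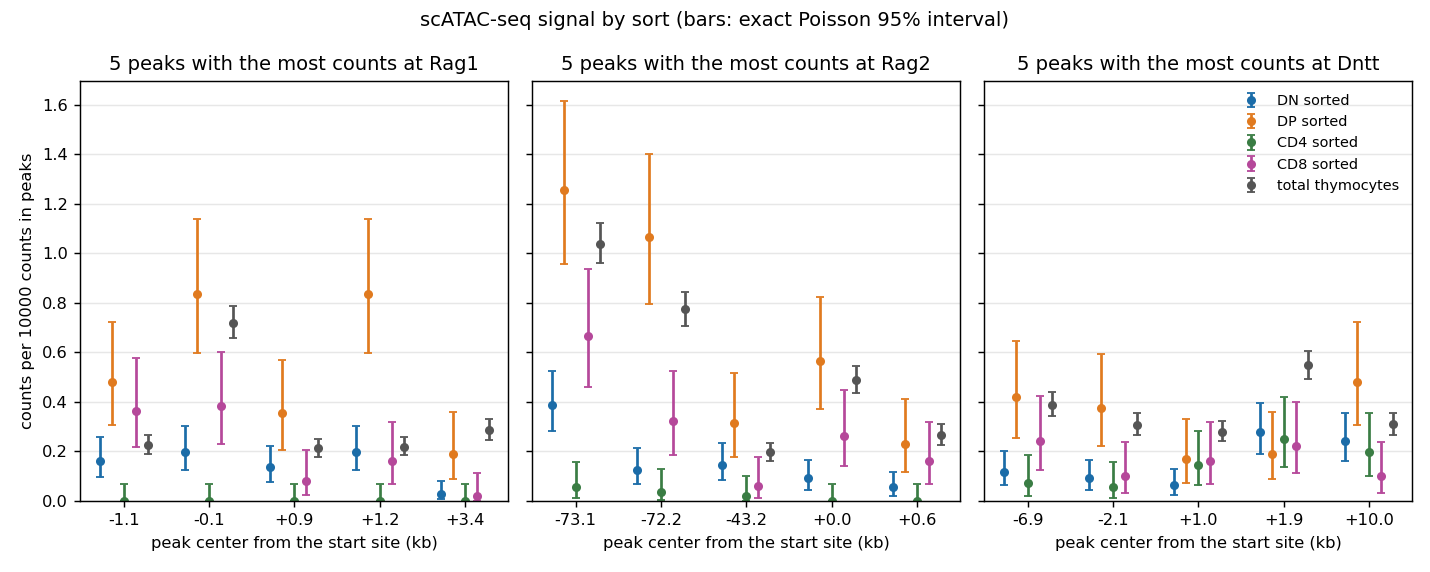
Counts per 10000 counts in peaks at the 5 peaks with the most counts at each locus, by sort, with exact Poisson 95% intervals as bars. The x axis gives the distance of the peak center from the start site in kb, negative when upstream. Among the 4 sorts DP cells had the highest value at the Rag1 and Rag2 peaks shown and CD4 cells had 0 counts at the Rag1 peaks shown, and at the Dntt peak 1.9 kb into the gene total thymocytes exceeded all 4 sorts.

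The strongest peak near the Rag genes was not at a promoter. It lay 73102 bp upstream of the Rag2 start (chr2:101549617-101553616), its central sequence is the last of those shown above, and it had 804 counts over all cells, against 542 at the Rag1 start. Elements far upstream of Rag2 are known to act on both Rag genes in developing T cells. The signal there was 1.25 in DP (60 counts), 0.388 in DN (43 counts), 0.667 in CD8 (33 counts) and 0.0538 in CD4 cells (3 counts). The next peak, centered 72221 bp upstream and overlapping it, had 578 counts, with 51 in DP, 14 in DN, 16 in CD8 and 2 in CD4 cells. Not every peak had this order of sorts. A peak in the body of Rag2, centered 4273 bp after its start, had 8 counts in DN, 3 in DP, 9 in CD4 and 13 in CD8 cells. A peak centered 12203 bp after the Rag1 start, past the end of the gene, had 21 counts in DN and 6 in DP cells.

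**Figure D5:**
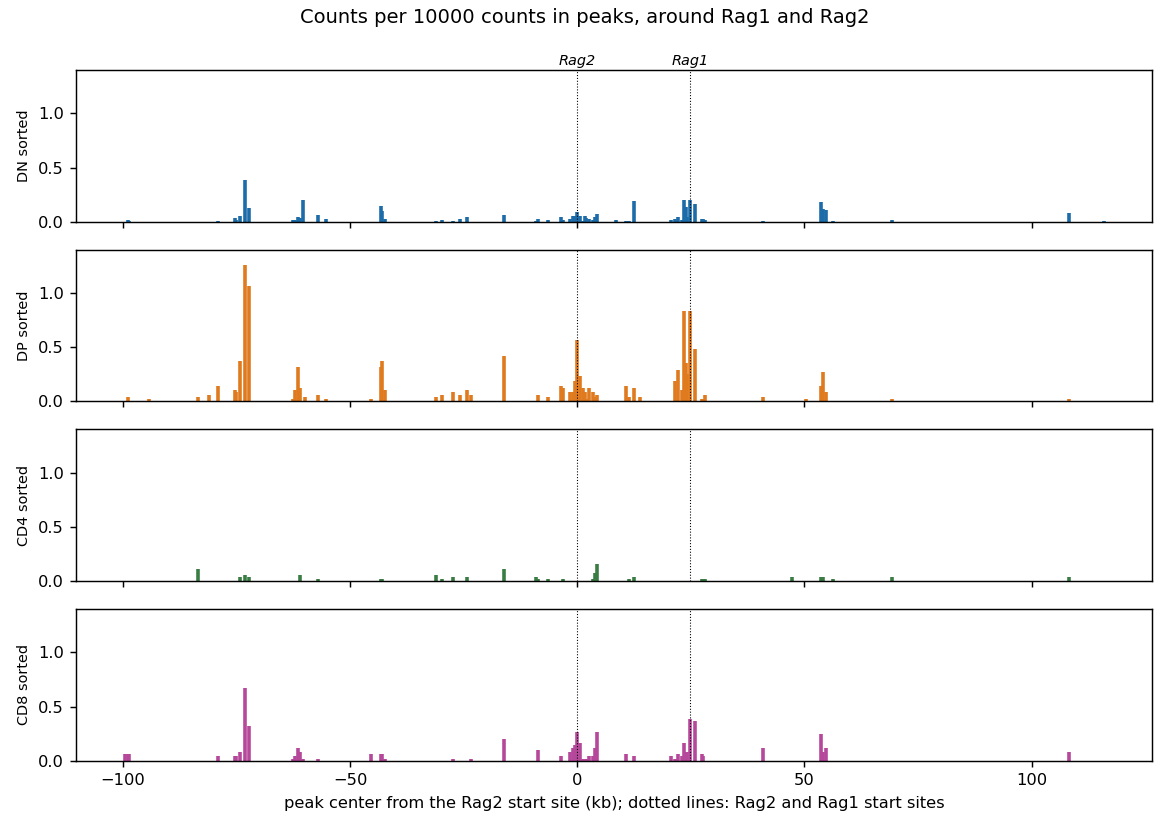
Counts per 10000 counts in peaks at each peak centered within 100 kb of the Rag1 and Rag2 genes, by sort, against the distance of the peak center from the Rag2 start in kb; dotted lines mark the Rag2 and Rag1 start sites. DP cells had tall peaks at the distal element upstream of Rag2 and at both start sites, CD8 cells lower ones at the same places, and CD4 cells none above 0.2.

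Peaks with a scaled signal at least 2-fold higher in DP than in the CD4 and CD8 sorts made up 11.6% of the 20143 peaks with 20 or more counts. At Rag1 all 4 of the peaks that could be compared were higher, at Rag2 7 of 8 and at Dntt 8 of 10. The peaks compared were 4 of 11, 8 of 62 and 10 of 47, and the counts are a description only, since the minimum was on the counts of the compared sorts together and could be passed through the DP sort alone. The CD4 and CD8 sorts together had 19 counts at the Rag1 start and 13 at the Rag2 start. The exception at Rag2 was lower, and it is the peak in the gene body named above. In DP against DN, 12.8% of 20464 peaks were 2-fold higher, and at the loci 4 of 5, 8 of 9 and 6 of 10. The peak of Rag2 that was lower there had 22 counts in DN cells, 15 of them in 1 cell, and 0 in DP cells. In DN against CD4 and CD8 the share was 9.53%, and at the loci 2 of 4, 2 of 7 and 1 of 9, while 0, 2 and 1 were 2-fold lower. In CD8 against CD4 it was 9.18%, and only 3 peaks of the loci could be compared, of which 1 at Rag2 was higher. The peaks of a locus lie close together and share cells, so they are not independent. Of the peaks, the CD4 sort had 0 counts in 10 of 11 at Rag1, 38 of 62 at Rag2 and 23 of 47 at Dntt. The share over all peaks was not computed, so these zeros are not read as a trait of the loci. The peaks were sparse, with medians of 135, 30.5 and 55 counts over all cells.

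At Dntt the strongest peak held 10.9% of the counts of the locus, against 32.2% at Rag1 and 18.6% at Rag2. The peak at the start site, centered 102 bp downstream, had 0.251 per 10000 in DP, 0.0812 in DN, 0.0896 in CD4 and 0.162 in CD8 cells. The strongest peak of the locus, centered 1915 bp after the start (chr19:41029191-41033190), had 31 counts in DN, 9 in DP, 14 in CD4 and 11 in CD8 cells, so DP cells were not the highest there (0.188, 0.086 to 0.357). Total thymocytes had 0.547 (0.491 to 0.607), above every sort. A peak centered 6873 bp upstream had 13 counts in DN, 20 in DP, 4 in CD4 and 12 in CD8 cells, and a peak centered 10047 bp into the gene had 27, 23, 11 and 5.

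Total thymocytes, of which DP cells are the largest part in an adult thymus, lay between the DP sort and the other sorts, with 2.08 per 10000 at Rag1, 5.36 at Rag2 and 4.78 at Dntt. At Rag1, 113 counts came from a single cell in a single peak, centered 3350 bp after the start, and without them the signal was 1.91. The labels of these cells hold 2 numbers, whose meaning is not given. Over the 36 values of the first number the Rag2 signal ranged from 3.80 to 7.34 with a median of 5.32, and that of Dntt from 2.79 to 8.74 with a median of 4.83. The Rag1 signal ranged from 0.96 to 8.38 with a median of 1.74, and without the 113 counts of the single cell the highest value was 3.85. In cells with a count in the distal peak (436 of 1084), 37.2% had a count at the Rag1 start (32.6 to 41.9%), against 25.9% of the 648 without (22.6 to 29.5%), and the median depth was 6201 counts in the first of these groups and lower in the second. With the cells split into 4 equal groups by depth, the first share was also higher, with 23.9% against 19.1%, 41.3% against 23.5%, 36.5% against 32.1% and 40.7% against 32.5%. For the Rag2 start the shares were 26.8% and 21.1%, and in the 4 depth groups 19.4% against 13.2%, 24.8% against 18.5%, 27.0% against 27.6% and 31.7% against 29.4%, so that the third group went the other way. The strongest Dntt peak, on another chromosome, had a count in 26.4% of cells with and 22.4% of cells without a count in the distal peak, and in 23.0% and 24.4% of cells with and without a count at the Rag1 start. These shares are a description of sparse counts.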

How the data were processed

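The members and gene lists were chosen with earlier results of these data known. The scRNA-seq library was made with a 3′ droplet kit, and the submitters' processing notes name Cell Ranger 1.3.1 and the builds GRCm38.p5 and hg38. The authors deposited log2 values after quantile normalization (1993 cells, 8846 genes, 79.7% of values at 0). The authors deposited scATAC-seq counts per cell for 138317 peaks of 4000 bp, with no build stated. Of 21951 protein-coding starts on GRCm38, 49.0% had a peak center within 250 bp, against 5.35% and 5.18% after shifts of 100000 bp, so GRCm38 was used. Peaks were placed by their center: of 53103 peaks covered wholly by their neighbors, 18.4% held more counts than both together, so the width counted is unknown. Signal near 1 further marker gene is not reported here. The 362 cells not used were 352 total thymocytes whose label holds 1 number and not 2 and 10 with no group.

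Steps ranged from 1356 to 22539 per cell (median 2558). No doublet caller was run, no barcode was repeated, and the study's limit of 4500 genes would leave 1986 cells, the number that the study kept. Cells were clustered in Seurat 5.3.0 (R 4.3.3; 20 principal components, 30 neighbors, resolution 2) without the 3 genes. A cluster was given the name whose markers scored highest in it on average. Under a further rule, made once the clusters had been seen, clusters with Mki67 in 50% or more of cells could be only ISP-like or DPbla-like, with a score above 1. CD4 and CD8 single-positive clusters were pooled as SP-like. The genes named were the members, list genes past a log2 difference of 0.5, the 5 most correlated genes and the 5 strongest peaks per locus. Intervals were exact Poisson or binomial, Newcombe for differences of shares, and exact conditional binomial for ratios (scipy 1.17.1). They cover counting error only, and a count of 0 was given a floor of 3 counts. Counts of the same cell or of overlapping peaks were treated as independent, so intervals of sums can be too narrow. The intervals of ratios and of differences of shares, and the log2 difference of 0.5, were tested on simulated counts. The steps themselves and the quantile normalization were not part of that simulation. Alternatives to thinning, clustering, filters, peak choice, scaling and label blocks were tried.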

Additional observations from a re-analysis of the deposited data

How the results depend on the processing

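The library and each sort are 1 sample, so no value here measures the spread between animals. No paired analysis was possible because no result comes from a test and the replicate numbers only name cells. Label blocks 4000 and 31000, shared by the 4 sorts, were compared one at a time. Of 169 alternative values over 24 results, 122 stayed within the interval or limit of the reported value, 44 moved and 3 reversed. A change of sign counted as reversed only where the interval of the reported difference excluded 0, so that Rag2 in DN minus ISP counts as moved. Without thinning, the differences in shares of Rag1, Rag2 and Dntt were 4.56 (-0.154 to 9.53), -14 and -3.19 points for DPre minus DPbla, 61.1, 27.3 and 48.4 points for DPre minus DPsel, and 1.27, -7.16 and -0.701 points for DN minus ISP, where depths differ. With 2 steps or more required, Dntt in DPre minus DPbla was 24.7 points, Rag1 and Rag2 in DPre minus DPsel were 38.9 and 5.45 points, and Rag1 and Dntt in DN minus ISP were 12.9 and 35.7 points. Rag2 was then 3.42 points (0.727 to 6.01) in DPre minus DPbla and 2.56 points (-0.416 to 8.88) in DN minus ISP. With 30 principal components Rag2 in DPre minus DPbla was 3.8 points, with an interval that included 0, and with 20 neighbors Dntt in DN minus ISP was 15.8 points. At a log2 difference of 1, the genes higher in the first class numbered 0, 18, 16 and 5 in DPre minus DPbla, DPre minus DPsel, DN minus ISP and DPsel minus SP. With 50 counts required, 330 peaks were 2-fold higher in DP. At resolution 1 no ISP-like class was found, so DN minus ISP has no value there. Total thymocytes with 2 numbers in the label were not analysed apart, since all those used have both.

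For peaks that do not overlap, DP over CD4 and CD8 was 4.05 at Rag1, DP over DN was 2.37 at Rag1 and 1.68 at Dntt, and DN over CD4 and CD8 was 0.818 at Rag2 and 1.25 at Dntt. In label block 31000, DP over CD4 and CD8 was 28.1, 4.60 and 1.57 at Rag1, Rag2 and Dntt, DP over DN was 15.1, 2.60 and 1.37, and DN over CD4 and CD8 was 1.77 at Rag2, with 1 count at Rag1 in each of the lower groups. In label block 4000, DP over DN was 2.06 at Rag2 and 1.53 at Dntt, and DN over CD4 and CD8 was 1.26 at Rag1 (0.711 to 2.12), 1.5 at Rag2 (1.15 to 1.94) and 1.3 at Dntt (0.98 to 1.71). As shares of cells at 1000 counts, DP over CD4 and CD8 was 4.19, 2.37 and 2.71, DP over DN was 2.96 at Rag2 and 3.02 at Dntt, and DN over CD4 and CD8 was 0.801 at Rag2. As counts per cell, DP over DN was 2.13, 2.19 and 1.37, and DN over CD4 and CD8 was 1.36 at Rag2 and 1.41 at Dntt. The cause was not tested. The alternatives with the unnamed cluster counted as DPbla-like and without the counts of 1 cell at Rag1 were added after the data were seen.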
